A study of Drosophila melanogaster with 2 samples.

Results

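The genes described here encode the proteins of the mitochondrial ribosome in Drosophila melanogaster, and the measurement is where the tagged protein of the fly gene CG10979 was found near their starts. Members were the protein-coding genes whose symbol begins with mRpL or mRpS followed by a digit in the Ensembl annotation of build dm6. This gave 73 of 13945 protein-coding genes on the 6 main chromosome arms, 47 named for the large ribosomal subunit (mRpL) and 26 for the small one (mRpS). A member was counted as having a peak when a peak summit, the position of highest signal in a peak, lay no more than 500 bp from one of its annotated transcript starts.

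The mitochondrial ribosome translates the few proteins that mitochondrial DNA encodes, which are subunits of the respiratory chain and of ATP synthase. It has a large subunit, which forms peptide bonds, and a small subunit, which reads the messenger RNA. Its protein components are encoded in the nucleus, made in the cytoplasm and imported, and some belong to families that bacterial ribosomes share while others occur in mitochondria alone.

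Chromatin immunoprecipitation with sequencing (ChIP-seq) was done on a transgenic fly line that stably expresses CG10979 with green fluorescent protein (GFP) at its C terminus, using an antibody against GFP. The chromatin came from whole embryos of both sexes, pooled, 0 to 14 h old, and was sheared by sonication to fragments of 200 to 800 bp. The series has 1 group, with biological replicates 2 and 3 of this 1 line, and no second condition. Any value is therefore an average over all cell types and stages of these embryos, and it concerns the tagged fusion protein. Peaks were called by the authors against a control alignment, which was not analysed here. Each replicate and the pool of both have a relaxed list of 30000 peaks, and 1 stricter list of 7630 peaks holds those that passed the authors' threshold on the irreproducible discovery rate (IDR), which asks how well peaks keep their rank from one replicate to the next. Peak strength is given as the authors' signal value, a score that ranks peaks within a list and has no unit. The lists hold no read counts, so depth is unknown. With 1 group there was no test between conditions, genes are not replicates, and the shares below are descriptions set beside the same shares over all protein-coding genes.

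The DNA under 6 of the 8 strongest member summits is shown first, because its base composition recurs in the results. The windows of mRpL41 and mRpL23, which are among those 8, are not printed. That of mRpL23 lies in a 5′ UTR, had a GC content of 20.8% and held a match to TATAAA. Each line gives the IDR summit, base 51, with 50 bases of dm6 on either side, read from the RefSeq genome 5′ to 3′ on the strand of the named gene. Capitals would mark a match to any of the 9 motifs described further on, and the 6 windows printed hold none. The windows lie upstream of mRpS10 (chr3R:15229480-15229580, plus strand), mRpS23 (chr2L:13835408-13835508, minus), mRpL24 (chr2L:4945436-4945536, minus), mRpS2 (chr2L:4850508-4850608, minus), mRpL20 (chr3L:13018106-13018206, minus) and mRpS7 (chr2L:10386419-10386519, plus).
mRpS10: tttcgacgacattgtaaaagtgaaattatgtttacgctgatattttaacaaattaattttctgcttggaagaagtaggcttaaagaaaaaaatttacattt
mRpS23: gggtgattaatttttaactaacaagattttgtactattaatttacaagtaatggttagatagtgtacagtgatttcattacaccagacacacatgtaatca
mRpL24: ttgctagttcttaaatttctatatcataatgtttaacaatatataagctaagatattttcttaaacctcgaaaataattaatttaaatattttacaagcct
mRpS2: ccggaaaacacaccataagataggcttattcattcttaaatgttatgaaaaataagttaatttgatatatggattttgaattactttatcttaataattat
mRpL20: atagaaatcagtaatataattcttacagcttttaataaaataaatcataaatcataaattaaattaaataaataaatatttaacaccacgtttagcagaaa
mRpS7: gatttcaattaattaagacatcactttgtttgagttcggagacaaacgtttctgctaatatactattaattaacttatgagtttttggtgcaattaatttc
These windows are rich in A and T. The window of mRpS10 had a GC content of 25.7%, that of mRpL24 19.8% with an unbroken run of 24 A or T bases, and that of mRpL20 16.8% with a run of 30.

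For contrast, the same length of sequence is given for a pair of members on the X chromosome with no peak in any list, from 150 to 50 bases before the start. They are mRpL22 (chrX:16783783-16783883, plus) and mRpL33 (chrX:4322281-4322381, minus). Capitals mark TATCGATA, the DNA replication-related element (DRE), in mRpL22 and TATAAA, the TATA box word, in mRpL33.
mRpL22: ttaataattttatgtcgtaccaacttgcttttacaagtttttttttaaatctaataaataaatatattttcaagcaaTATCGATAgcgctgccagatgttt
mRpL33: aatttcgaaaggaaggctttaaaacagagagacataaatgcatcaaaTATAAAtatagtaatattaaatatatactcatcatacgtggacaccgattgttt
Their GC contents, 24.8% and 27.7%, lay within the range of the windows that carried summits, so sequences this rich in A and T also occurred at members without a peak.

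In the relaxed lists, summits of the tagged protein lay within 500 bp of a start of most mitochondrial ribosomal protein genes. Most IDR summits at members were also near the start of another gene, as described below. An IDR summit lay at 39 of the 73 members (53.4%, 95% Wilson interval 42.1 to 64.4), against 25.2% of all protein-coding genes. In the relaxed lists, summits lay at 64 members in the pooled list (87.7%, against 54.1% of all genes), at 65 in replicate 2 (89.0%, against 54.0%) and at 64 in replicate 3 (87.7%, against 54.3%). With each replicate cut to its 7630 strongest peaks, the length of the IDR list, 37 members had a summit in replicate 2 (50.7%, against 24.4%) and 36 in replicate 3 (49.3%, against 26.3%). Of these, 32 members were in both, 5 in replicate 2 alone and 4 in replicate 3 alone. The Wilson interval covers the number of genes only.

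Most member peaks in the IDR list had signal values under 1000, as did most of those at other genes. Among the 3815 strongest peaks of the list 17 members had a summit (23.3%, against 13.1%), and among the 1000 strongest peaks 6 did (8.22%, against 4.09%). The members' IDR signal values ran from 190.8 to 6696 with a median of 317.9, below the median of 388.4 over all protein-coding genes with an IDR summit. Signal values of 1000 or more were found at 6 of the 39 (15.4%, against 18.4% of other genes with an IDR summit), and 16 lay under 300, near the list's lowest value of 189.9. In the relaxed pooled list the order was the other way. There the strongest peak had a median signal value of 223.4 over the 64 members with one, against 177.8 over all protein-coding genes with one.

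The strongest signal was at mRpS10, whose product belongs to the head of the small subunit. Its signal value was 6696 in the IDR and pooled lists, 3747 in replicate 2 and 2968 in replicate 3, and it ranked ninth in the IDR list. The summit lay on chromosome 3R at position 15229530, 135 bp upstream of mRpS10 and 122 bp upstream of Art3, an arginine methyltransferase gene read in the other direction. At mRpS23, a mitochondria-specific protein of the small subunit, the values were 4553 in the IDR list, 2671 in replicate 2 and 1882 in replicate 3. That summit was 386 bp upstream of mRpS23 but only 106 bp upstream of its neighbour CenG1A, a gene for a regulator of Arf GTPases. The summit of mRpS2, a small subunit protein of a family shared with bacteria, had a signal value of 1376 in the IDR list, 778.3 in replicate 2 and 603.1 in replicate 3. It lay 139 bp upstream of mRpS2 and 83 bp upstream of Mon1, a gene of endosome maturation. These 3 peaks were higher in replicate 2 than in replicate 3, and each lay between a pair of genes that point away from each other.

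Among the large subunit genes, mRpL41, mRpL23 and mRpL24 led. The peak of mRpL41, a mitochondria-specific protein, had a signal value of 4961 in the IDR list, 2831 in replicate 2 and 2141 in replicate 3, 141 bp upstream of its start. The start of its nearest sharing gene, the noncoding lncRNA:CR44463 on the same strand, lay 437 bp away from that summit. At mRpL23, which sits at the exit of the tunnel through which the new protein leaves, the values were 3041 in the IDR list, 1720 in replicate 2 and 1321 in replicate 3. Here the summit was 69 bp downstream of the nearest of the member's 3 annotated starts, in its 5′ UTR, and 119 bp upstream of the start of CG9004, which is 24 bp from the outermost start of mRpL23. The peak of mRpL24, another protein near the tunnel exit, measured 2095 in the IDR list, 1178 in replicate 2 and 922.9 in replicate 3. It lay 125 bp upstream of mRpL24 and 93 bp upstream of betaggt-I, which encodes a subunit of a prenyl transferase.

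The next 6 members had IDR signal values between 391.4 and 859.7. At mRpL20, a large subunit protein of a bacterial family, the values were 859.7 in the IDR list, 521.4 in replicate 2 and 342.6 in replicate 3, and the summit lay 289 bp upstream of mRpL20 but 110 bp upstream of Icmt. At mRpS7, a small subunit protein of a bacterial family, they were 594.9, 298.1 and 308 in the same order, with the summit 193 bp upstream of mRpS7 and 207 bp upstream of Cdk1, the mitotic kinase gene. mRpS7 was the 1 gene of these 6 with the higher value in replicate 3. For mRpL34 the values were 557.3, 282.8 and 276.4, with Dg, the dystroglycan gene, as the sharing neighbour. The start of Dg was closer to that summit than the start of mRpL34, at 166 against 218 bp. For mRpL37, a mitochondria-specific protein, the values were 499.2, 281.1 and 215.4, with the summit 164 bp upstream of its start. At mRpS24 the values were 482.2, 261.5 and 210.0, with the summit 270 bp upstream of mRpS24 and 151 bp upstream of Apc2. At mRpS18B they were 391.4, 229.8 and 151.2, with the summit 84 bp upstream of mRpS18B and 244 bp upstream of Kua, so that here the member's start was the closer one.

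The 3 members at the bottom of the IDR list were mRpS25, mRpL48 and mRpL21. The signal value of mRpS25 was 194.9 in the IDR list, with a matched summit of 103.3 in replicate 2 and 93.23 in replicate 3. At 483 bp upstream, its summit was the farthest from the member's own start. The start of nmdyn-D6 was closer to that summit, which lay 212 bp upstream of it. The replicate 2 counterpart fell outside the 500 bp window, so mRpS25 had no replicate 2 summit by the rule. At mRpL48 the values were 191.8 in the IDR list, 91.65 in replicate 2 and 99.82 in replicate 3, and at mRpL21 190.8, 96.44 and 92.28. All 3 lay close to 189.9, the weakest signal value in the IDR list.

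**Figure D1:**
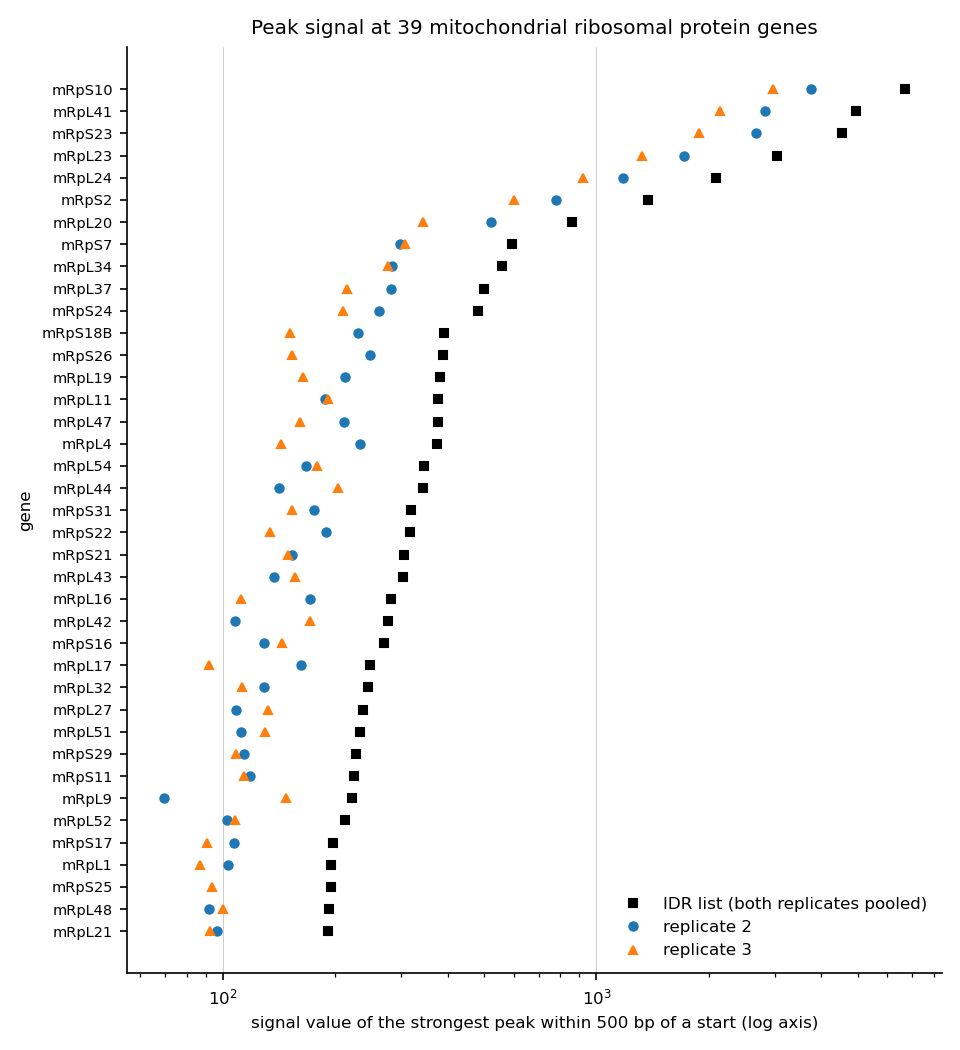
Signal value of the strongest peak within 500 bp of a start (x axis, log scale, no unit) for each of the 39 members with an IDR summit (y axis), with separate points for the IDR list, replicate 2 and replicate 3. The 6 members of 1000 or more stand above the rest, and replicate 2 lies above replicate 3 at each of them.

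The replicates ranked the members alike, as the plot of signal values by gene shows. Over the 39 members, the signal values of summits matched within 100 bp correlated with Spearman's rho of 0.83 and, as log2 values, with Pearson's r of 0.94. These describe the 39 genes, which share libraries, and the IDR threshold itself rests on how replicates rank peaks. At each of the 39 the signal value and rank were the same in the IDR and pooled lists. Which member peaks were in the IDR list thus went with pooled strength. The log2 ratio of replicate 2 to replicate 3 had a median of 0.23 (SD 0.52, n = 39), beside 0.24 (SD 0.44, n = 2430) for the IDR summits at other genes, and 27 members were higher in replicate 2 and 12 in replicate 3. In the 6 members of 1000 or more the log2 ratio ran from 0.34 to 0.51. In the 16 members under 300 its median was 0.06, beside 0.05 for other genes in that range. The ratio of replicate signals was thus near that of other genes of like strength.

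A few members departed from this. At mRpL51 the matched summits had signal values of 33.5 in replicate 2 and 129.3 in replicate 3 (log2 ratio -1.95), but replicate 2 had a stronger summit of 111.9 at 14 bp upstream, beyond the matching distance. The peak at mRpL9 was 69.7 in replicate 2 and 147.4 in replicate 3 (log2 ratio -1.08), and that at mRpL17, whose neighbour is Tudor-SN, was 162.1 and 91.51 (log2 ratio 0.82). Summit positions differed between replicates by a median of 20 bp and by at most 123 bp, and by at most 8 bp in the 6 members of 1000 or more.

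The summits lay upstream, at a distance. Of the 39 members, 36 had the summit upstream of the start and 3 downstream, in the 5′ UTRs of mRpL23, mRpS11 and mRpL52. The median signed distance was -139 bp (quartiles -227 and -101), close to the -136 bp over all genes with an IDR summit. The zone from 100 to 300 bp upstream held 26 of the 39 (66.7%, against 49.8% of other genes), and 10 lay within 100 bp of the start. By annotation, 30 summits were intergenic, 6 were in the 5′ UTR of another gene and 3 in that of the member. The gene mRpL47 had 2 IDR summits, with signal values of 375.5 at 138 bp and 210 at 340 bp upstream.

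Nearly all of these summits were also within 500 bp of a start of another gene. This was so for 36 of the 39 (92.3%, against 57.9% of other genes with an IDR summit), and the exceptions were mRpL19, mRpL4 and mRpL9. Among genes with a divergent neighbour within 1000 bp the shares were closer, 97.3% of 37 members against 85.3% of 2248 other genes. The sharing gene was on the opposite strand for 35 members, and for mRpL41 it was only on the same strand. Among the 36, the sharing gene's start was closer to the summit than the member's in 21 and farther in 15, with median distances of 135 bp to the neighbour and 140 bp to the member. When each IDR summit was given to its nearest gene alone, 18 members kept one (24.7%, against 18.8% of all genes). When a peak's whole interval had to cover a start, 20 members had one (27.4%, against 16.5%). A shared summit cannot be assigned to either gene from these lists.

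The members' own arrangement in the genome went with this. A gene is called divergent here when a gene on the opposite strand starts within 1000 bp upstream, and 58 of the 73 members were divergent (79.5%), against 39.6% of all protein-coding genes. No divergent partner was itself a member. Among the divergent members 37 of 58 had an IDR summit (63.8%, against 41.1% of other divergent genes). Among the 15 that were not divergent, 2 had one (13.3%, against 14.7% of other such genes). The 2 are mRpL19 and mRpL9. Members also tended to have a single annotated start (67 of 73, 91.8%, against 73.5% of all genes). Among genes both divergent and with 1 start, 33 of 53 members had an IDR summit (62.3%, against 36.8% of other genes).

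The gap between divergent starts had a median of 283 bp in members and 298 bp in other genes. It was 291 bp in the 37 divergent members with an IDR summit (24 to 793 bp) and 170 bp in the 21 without (20 to 515 bp), ranges that overlap widely. Where the gap was up to 300 bp, 20 of 33 members had a summit (60.6%, against 46.0% of other genes), and with a gap over 300 and up to 1000 bp 17 of 25 did (68.0%, against 36.1%). In 28 members the summit lay inside the gap, at a median of 54.4% of the way from the member's start to the neighbour's (quartiles 34.9% and 63.2%). In these 28 genes the summit tended to lie nearer the middle of the gap than either start.

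**Figure D2:**
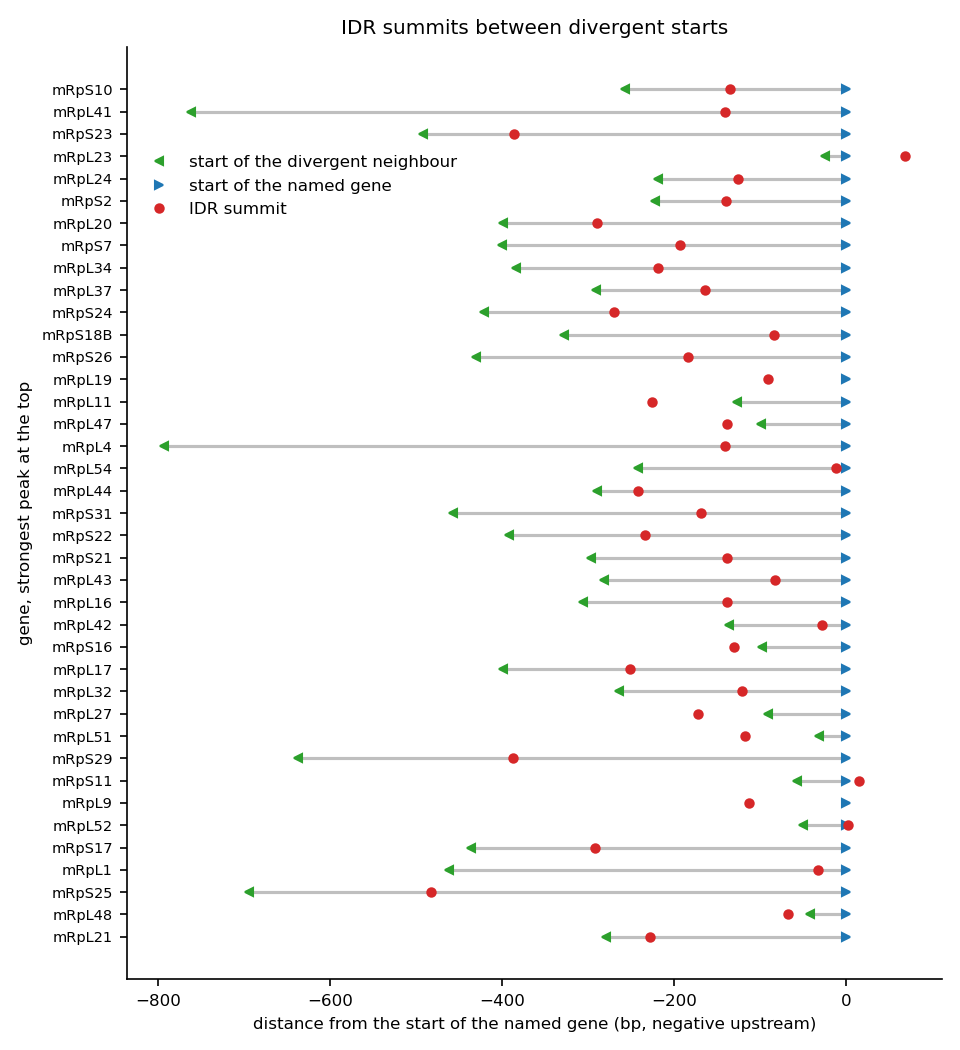
Position of the IDR summit (x axis, distance in bp from the member's start, negative upstream) at each of the 39 members with one (y axis, strongest peak at the top), with the start of the divergent neighbour where there is one. At 28 members the summit lies between the pair of starts, and at mRpS23 it lies 386 bp upstream, nearer to the neighbour. For mRpL23 the summit is placed from its nearest start and the neighbour from its outermost one.

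The map of summits and divergent starts shows, gene by gene, whether the summit lay inside the gap or outside it. Chromosome arms differed among the members. IDR summits were found at 9 of 12 members on 2L (75%, against 24.7% of other genes there), 9 of 12 on 2R (75%, against 23.9%), 13 of 21 on 3R (61.9%, against 26.9%) and 6 of 17 on 3L (35.3%, against 26%). On the X chromosome 2 of 11 had one (18.2%, against 23.8%), and these were mRpL16 and mRpS25. The signal value of mRpL16 was 282.3, with the summit 138 bp upstream and shared with trr, a histone methyltransferase gene. Outside the X, 37 of 62 members had an IDR summit (59.7%, against 25.3%). The X members were not short of divergent neighbours, since 9 of the 11 were divergent, and of these 9 an IDR summit was found at 2 (22.2%, against 34.9% of other divergent X genes). With so few genes per arm these shares are loose, and the difference between arms was not tested.

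**Figure D3:**
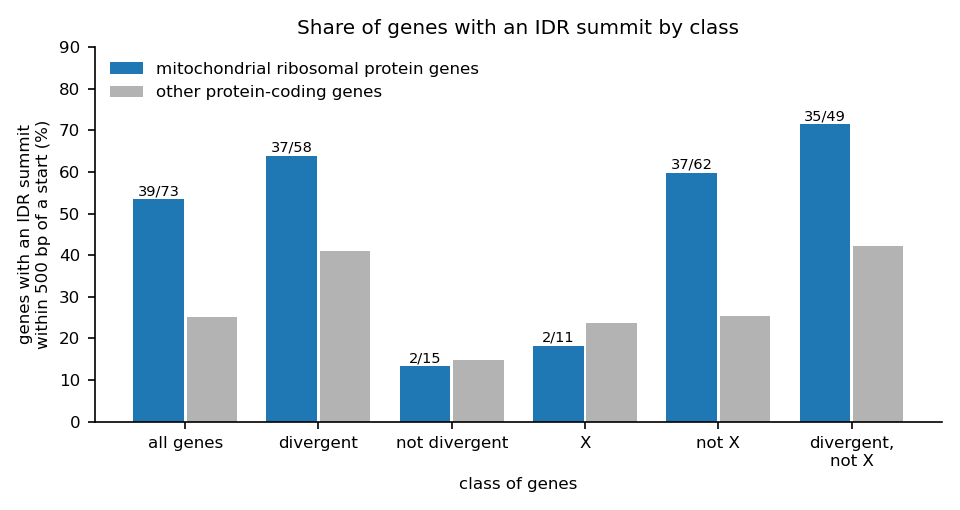
Share of genes with an IDR summit within 500 bp of a start (y axis, %) for members and for other protein-coding genes by class (x axis); bars start at 0. Members stand above other genes when divergent (63.8% against 41.1%) and beside them when not divergent (13.3% against 14.7%).

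By the role of the protein in the ribosome the shares were close. Of the large subunit genes 24 of 47 had an IDR summit (51.1%) and of the small subunit genes 15 of 26 (57.7%), a difference of -6.63 percentage points. Taking family numbers up to 36 for mRpL and up to 21 for mRpS as families shared with bacteria, 22 of 42 had a summit (52.4%), and of the mitochondria-specific families 17 of 31 did (54.8%). Symbols do not fully give the role: in mammals the counterparts of mRpS18A and mRpS30 lie in the large subunit, and those of mRpS24 and mRpS28 belong to bacterial families. With the first pair moved, the shares were 24 of 49 (49%) and 15 of 24 (62.5%), and with the second pair moved 23 of 44 (52.3%) and 16 of 29 (55.2%). This placement was made after the values were seen. It covers only the symbols named here, so others may still be misplaced by number.

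Among the classic functional parts of the large subunit, peaks were mixed. In the stalk region, where translation factors bind, mRpL11 had an IDR signal value of 377.2, while mRpL10 and mRpL12 had only relaxed peaks, of 141.4 and 173.6 in the pooled list. For mRpL1, which forms a separate stalk on the other side of the subunit, the IDR signal value was 195. Of the proteins that line the exit tunnel, mRpL4 had an IDR signal value of 375, and mRpL22 had no peak in any list. Near the peptidyl transferase centre, mRpL27 had 237.2, mRpL2 a relaxed peak of 111.2, and mRpL3 none in the pooled list. In the small subunit, mRpS29, a GTP-binding protein whose summit is shared with the DNA repair gene rad50, had 227.1, and mRpS9, which reaches the decoding site, had none. The IDR summits of mRpL11, mRpL27 and mRpS29 lay nearer the starts of HtrA2, CG15435 and rad50 than those of the members. Those of mRpL1 and mRpL4 lay nearer the member's start.

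Another 25 members had a relaxed pooled summit but no IDR summit. Their pooled signal values ran from 37.9 to 186.7 with a median of 123.3. Every member peak in the IDR list kept its pooled signal value and rank. That these 25 lie below the lowest IDR value of 189.9 therefore follows from that cutoff. The highest were mRpL35 (186.7 in the pool, 71.8 in replicate 2, 126.4 in replicate 3), mRpS28 (186.1, 84.4 and 97.06), mRpL50 (175.7, 121.2 and 55.47) and mRpL12 (173.6, 87.64 and 83.28). At mRpL35 and mRpL50 the replicates differed most among these 4, in opposite directions. The summits of the 25 lay nearer the start, at a median of -52 bp, with 17 upstream, 8 downstream and 13 within 100 bp. Divergent genes made up 17 of the 25.

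The 9 members without a pooled summit were mRpL3, mRpL22, mRpL33, mRpL49, mRpS5, mRpS9, mRpS18A, mRpS34 and mRpS35. Of these, 4 were on the X chromosome and 4 were divergent. A summit was found in 1 replicate at mRpL3 (37.6), mRpL49 (32.8) and mRpS5 (46.26) in replicate 2 and at mRpS18A (78.21) in replicate 3. The other 5, mRpL22, mRpL33, mRpS9, mRpS34 and mRpS35, had none in any list. A gene missing from a list of 30000 peaks had no peak at that length of list, and weaker binding was not detectable here.

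The base composition seen in the printed windows held over the members as a whole. The window from 50 bases before to 50 after the summit had a GC content of 30.9% ± 8.60 (SD, n = 39 summits), and windows 300 bp to either side had 46.9% ± 7.16, a mean difference of -16.0 percentage points, with the summit lower in 36 of 39. In the 6 members of 1000 or more the summit was at 23.4% ± 3.29 (SD, n = 6), a difference of -22.9 points, lower in all 6. Other genes of 1000 or more had 28.0% and a difference of -17.1 points, lower in 444 of 482, so the difference was larger at strong summits there too. Over other genes of any strength the values were 33.2% ± 10.6 (SD, n = 2534 summits) and -11.1 points, and for other divergent genes the difference was -13.4 points. At the 25 relaxed-only members the summit was at 42.8% ± 10.6 (SD, n = 25), a difference of -4.24 points.

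**Figure D4:**
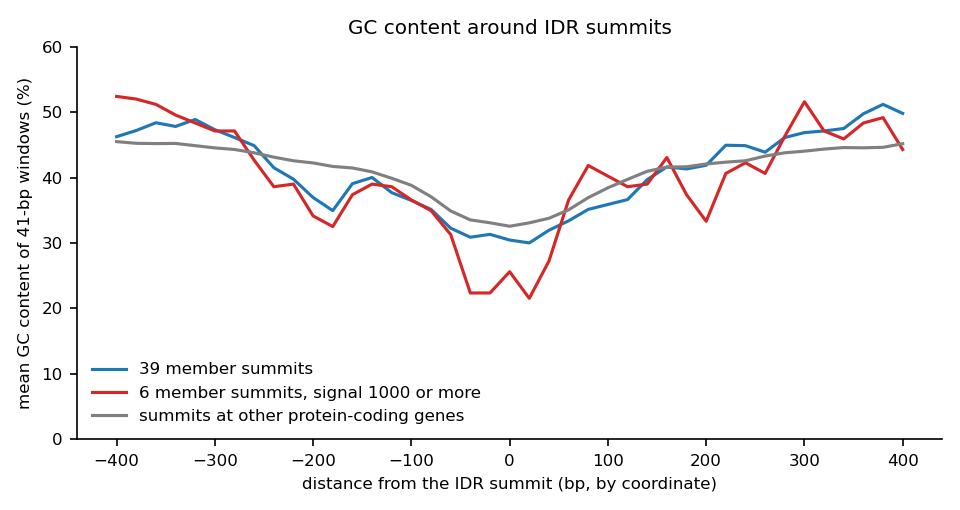
Mean GC content of 41-bp windows (y axis, %) against distance from the IDR summit (x axis, bp) for the 39 members, the 6 members of 1000 or more, and other protein-coding genes. GC content falls towards the summit in each group and is lowest in the 6 strong members.

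In the profile of GC content around summits the strong members were lowest at the centre. Promoter GC content overlapped between members with and without peaks. The promoters, taken from 250 bases before to 50 after the start, had a GC content of 35.5% ± 5.61 (SD, n = 39) with an IDR summit and 36.5% ± 6.88 (SD, n = 34) without one. Of the latter, the 25 relaxed-only members had 37.6% ± 7.49 and the 9 without a pooled summit 33.4% ± 3.48. The mean over all protein-coding genes was 39.1%. The part of base composition in the peak shares was not tested.

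The promoters of the members shared a sequence word that the peaks did not follow. The E-box CAGCTG, known as Ohler motif 5 of fly core promoters and a palindrome that reads alike on both strands, occurred in 40 of the 73 promoters of that length (54.8%), against 17.7% of all promoters and 21.1% of other divergent ones. Its position was close to the start, with a median of 6 bases downstream (quartiles -15.8 and 18), and 35 of the 73 members had it within 50 bases of the start (47.9%, against 9.28% of other genes). This placement was examined after the shares were known. Each line below gives 30 bases of dm6 on the gene's strand with CAGCTG in capitals, first for 4 members with an IDR summit and then for 4 with no pooled summit, to show the same word in both. The coordinates are chr3L:2373715-2373744 (mRpL23, minus), chr2L:4945324-4945353 (mRpL24, minus), chr2L:4850413-4850442 (mRpS2, minus), chr3R:24163508-24163537 (mRpS24, minus), chrX:4322207-4322236 (mRpL33, minus), chr3L:16348064-16348093 (mRpS34, plus), chr3L:2780875-2780904 (mRpS35, plus) and chr3R:7902710-7902739 (mRpS9, minus).
mRpL23: gtggttgacaatCAGCTGtttaaaacaagt
mRpL24: ttcagttctcaaCAGCTGattgcaagccgc
mRpS2: aacactacccacCAGCTGtttaccaaaatc
mRpS24: cgtcacgtcaatCAGCTGttgctggacgca
mRpL33: gataggcgcagtCAGCTGttcttcgttcct
mRpS34: agccagccggcaCAGCTGttcgaccttccc
mRpS35: agtttctgtaaaCAGCTGattgcttgctat
mRpS9: ggcgccaaaaatCAGCTGaaagcttgtgtg
In 7 of these 8 genes the word lies within 50 bases of the start, and in mRpS9 it lies 58 bases upstream.

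The E-box was present in 21 of 39 members with an IDR summit (53.8%) and in 19 of 34 without (55.9%). Put the other way, 52.5% of members with the word and 54.5% of those without it had a summit. Where both were present, the distance between the word and the summit had a median of 130 bp (21 to 491 bp, n = 21), and in 2 of 21 it was within 50 bp. Only 2 of 39 summit windows held the word (5.13%, against 4.74% of summit windows of other genes).

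The other motifs were searched on both strands in the same promoters. TATCGATA, the DRE bound by the DREF factor, was in 15 members (20.5%, against 9.36% of all and 15.1% of other divergent promoters), in 25.6% of those with an IDR summit and 14.7% of those without. It was in none of the 39 summit windows (3.24% of those of other genes). CGATA, the core word of the insulator protein BEAF-32, which TATCGATA contains, was in 58.9%, against 47.4% of all and 58.1% of other divergent promoters. GGTCACAC (Ohler motif 1) was in 11.0%, against 7.70% of all and 12.5% of other divergent promoters. In the same order, GTATNTTT (Ohler motif 6) was in 17.8%, against 14.9% and 18.5%, and TATAAA in 46.6%, against 45.8% and 47.8%. These 3 shares were thus below those of other divergent promoters. AGATGGC, a part of the CTCF motif, was in 2.74%, against 3.72% and 4.11%. GCGCCA was in 13.7%, against 12.1% and 11.3%, and ACCGCG in 6.85%, against 5.64% and 5.96%. The last 2 words had been picked as high at summits in earlier work on these same lists. Among members, GCGCCA was in 2 of 39 with an IDR summit (5.13%) and 8 of 34 without (23.5%). For ACCGCG the shares were 5.13% and 8.82%. These splits were not tested. A match says only that the letters are there.

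**Figure D5:**
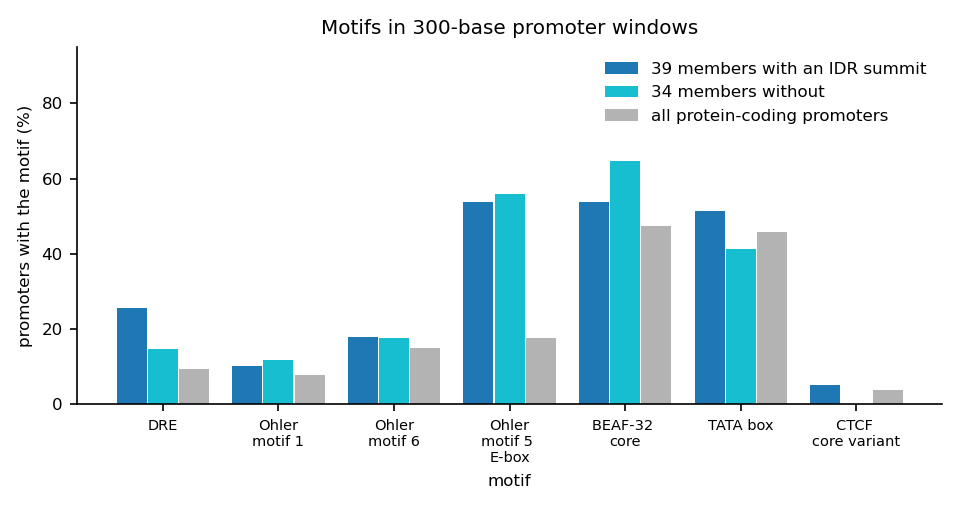
Share of 300-base promoters holding each of the 7 named motifs on either strand (y axis, %) for members with and without an IDR summit and for all protein-coding genes. The E-box stands out in both member classes, 53.8% with and 55.9% without a summit, against 17.7% of all promoters.

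The members can be set beside the cytoplasmic ribosomal protein genes and the genes for nuclear-encoded respiratory chain subunits. Both lists were taken by symbol, and the respiratory chain list here also includes ATP synthase genes. Of 92 cytoplasmic ribosomal protein genes 73 had an IDR summit (79.3%), at a median of -32 bp with 56.2% shared, and of 90 respiratory chain genes 25 had one (27.8%, near the 25.2% of all genes), at -78 bp with 80.0% shared. The members' median of -139 bp was farther from the start than in these groups, but close to the -136 bp of all genes and the -134 bp of the 2 mitochondrial translation factor genes with a summit. Divergent genes made up 79.5% of them, 63.0% of the cytoplasmic ribosomal genes and 53.3% of the respiratory chain genes. The plot of motifs by promoter class can be read beside this, since the E-box was in 9.78% and 23.3% of the promoters of these groups. None of these differences was tested.

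Other genes of mitochondrial gene expression were counted in the same way, beside the 25.2% of all protein-coding genes. The genes tko and bonsai, small subunit proteins that do not carry the mRp name, both had an IDR summit. The signal value of tko was 209 in the IDR list, 105.7 in replicate 2 and 98.31 in replicate 3, and that of bonsai was 213, 74.96 and 127.1 in the same order. Of 9 mitochondrial translation factors 2 had an IDR summit (22.2%), the release factor mRF1 (217.5) and the elongation factor mEFTu1 (196.4). Of 15 mitochondrial aminoacyl-tRNA synthetases, which charge tRNAs, 3 had one, led by ProRS-m (500.6) and CysRS-m (388.7). Both shares are near that of all genes. Of 7 genes of mitochondrial transcription 3 had one (42.9%), led by mTerf5 (489.1) and the RNA polymerase PolrMT (251.6). The IDR signal values of the genes named here ran from 196.4 to 500.6, around the members' median of 317.9 and far below mRpS10. The summits of bonsai, mRF1, ProRS-m, CysRS-m, mTerf5 and PolrMT were shared with a start of another gene. Those of tko and mEFTu1 were not.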

How the data were processed

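The authors deposited 4 narrowPeak lists on dm6, per the labels. A text deposited beside them states that calling used a control alignment, that the replicate lists come from single alignments and the pooled list from both, and that the IDR list derives from these. Not given in the sources used here are the aligner and the peak caller. The signal value is a score deposited by the authors' caller, whose scale moves with depth and is not stated. In the IDR list 126 intervals repeat another interval with a different summit, and each summit was kept.

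From these, summits were assigned to all starts within 500 bp (Ensembl release 115), signed by the gene's strand. Replicate summits were matched within 100 bp of the IDR summit. Sequence came from the RefSeq genome of the same build. Python 3.11.15, numpy 2.4.6, scipy 1.17.1 and matplotlib 3.10.9 were used, and assignment was tested on simulated data. The members, gene lists, motifs and alternatives were chosen with earlier results of these data known. Values in every list are given for the 12 members with the highest and the 3 with the lowest IDR signal, for the 4 highest relaxed-only members, and every member without a pooled peak is named; members of classic functional parts and those departing between replicates were chosen after their values were seen. In pathway lists the 2 leading genes are named. An item that this rule names is left out of the text. mEFG2 was not matched by symbol. Alternatives were start windows of 200 and 1000 bp, each replicate alone, the 3815 strongest IDR peaks, 1 start per gene, interval and nearest-gene assignment, other match distances and other GC windows.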

Additional observations from a re-analysis of the deposited data

How the results depend on the processing

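With a start window of 200 bp the members with an IDR summit numbered 27 (37.0%, against 18.3% of all genes), the shared summits 17, the median distance -125 bp and the median pooled signal 193.4, and the difference between large and small subunit turned to 3.68 points. A narrower window holds fewer summits by construction. With 1000 bp the count stayed at 39 (against 29.4% of all genes) and the median pooled signal was 204.6, beside 223.4 at 500 bp. Among the 3815 strongest IDR peaks 17 members had a summit and 15 shared it, with peak intervals over a start 20, with the nearest gene alone 18, and in the relaxed pooled list 64. Leaving out a replicate gave 36 to 37 members, 33 to 35 shared summits, a large minus small difference of -7.04 to -4.91 points and a GC difference of -15.8 to -14.7 points. The GC difference was -16.9 points with windows of 51 bp, -13.5 with windows reaching 100 bp to either side, and -20.5 with flanks 500 bp away, and its direction was the same in these. The median log2 ratio of replicates was 0.22 to 0.37 over its alternatives, of which the strongest summit at the start in each replicate was added after seeing the data. The cause of these shifts beyond the construction of each alternative was not tested. No paired analysis was possible because both samples belong to 1 group. Depth is unknown, and 2 replicates of 1 line limit the precision of every signal value.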

Other observations

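The E-box CAGCTG was also frequent in the promoters of other genes for mitochondrial gene expression. It was in both tko and bonsai, in 5 of 9 mitochondrial translation factor genes (55.6%), in 7 of 15 mitochondrial aminoacyl-tRNA synthetase genes (46.7%) and in 5 of 7 genes of mitochondrial transcription (71.4%), beside 54.8% of the mitochondrial ribosomal protein genes and 17.7% of all promoters. Within 50 bases of the start it lay in 55.6%, 46.7% and 57.1% of these last 3 lists, against 9.48% of all protein-coding genes. Among the mitochondrial ribosomal protein genes the word was in 27 of 47 large (57.4%) and 13 of 26 small subunit genes, and in 3 of 11 genes on the X chromosome (27.3%). Over all protein-coding genes 22.5% of promoters with an IDR summit and 16.0% of those without held it. These shares were examined after the first motif counts were known, and none was tested.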
